A study of Mus musculus with 4 samples.

Results

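The cells described here are mouse lung B cells whose barcodes carried transcripts of both IgD and CD23, the surface pair that marks follicular B cells. They were selected on measured UMIs (unique molecular identifiers, 1 per captured transcript) in droplet single-cell RNA sequencing of CD45.2+ cells. A barcode was a member when it had at least 2 UMIs of Cd79a, at least 1 UMI each of Ms4a1, Ighd and Fcer2a (the CD23 gene), and none of Cd3e, Cd3d or Marco. There were 4699 members among the 27544 barcodes kept, and 6712 barcodes met the B cell part of the rule.

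The 4 libraries came from C57BL/6 mice, 1 library for each combination of genotype and treatment. WT mice were Ift20 f/f, with both Ift20 alleles floxed and no Cre. KO mice were Ift20 f/f CD4 cre, which carry the same floxed alleles and a Cre recombinase driven by CD4 regulatory sequence, active in developing T cells. Ift20 encodes a small subunit of the intraflagellar transport complex that also acts in vesicle traffic. Papain, a plant cysteine protease used as an inhaled allergen, was given intranasally at 25 µg on 3 consecutive days and again on day 14, and the lungs were taken on day 15. The DPBS groups received buffered saline. Live CD45.2+ cells were sorted, and neither ages nor the number of mice behind a library is in the labels used here. With 1 library a group, no difference between conditions has a replicate check, and every interval below covers counting error only.

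Follicular B cells are the main recirculating naive B cells. They carry IgM and IgD made from 1 heavy chain transcript by alternative processing, bind antigen through the B cell receptor and present it to helper T cells on MHC class II. CD23 is the low-affinity receptor for IgE, the antibody class of allergy, and its expression is raised by IL-4.

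Library depth and purity set how the values can be read. The median number of UMIs per member was 4013 (WT) and 4285 (KO) under DPBS and 4395 (WT) and 4911 (KO) under papain, from 4333971 to 7917316 UMIs in all per library. Any pair of libraries shared 6 to 14 kept barcode sequences, and 0 to 1 members. Among the members, 75, 33, 65 and 55 barcodes (WT then KO under DPBS, then WT and KO under papain, the order of every 4 values below) also held at least 10 UMIs of 1 marker list of another cell type, or of Igha and Jchain together. These mixed barcodes were deep, with medians of 16886, 16630, 17395 and 15996 UMIs against 3951, 4247, 4326 and 4839.5 in the other members, and they held 12.1 to 16.6% of the members' UMIs. The limit of 10 UMIs was set after seeing the data. Levels are given below as UMIs per 1000000 UMIs (CPM) over the 4471 members without mixed barcodes unless all members are named.

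The mixed barcodes carried most of the Chil3 and Lyz2 transcripts found among the members, and in the WT libraries most of Igha and Jchain. Chil3, a chitinase-like protein of alveolar macrophages, had 94.9, 80.9, 96.2 and 89.9% of its UMIs in them, and Lyz2, the myeloid lysozyme, 93.5, 89.8, 93.5 and 94.7%. In DPBS WT, 4515 of 4588 Igha UMIs lay in 1 barcode, and in papain WT 10241 of 10329. In the KO libraries, with 13 and 131 Igha UMIs, mixed barcodes held 23.1 and 51.9% of them, and 14.3 and 17.02% of Jchain. Over the whole lists, the 6 alveolar macrophage genes summed to 1425, 606, 2775 and 575 CPM in all members and to 96.2, 120.2, 133 and 62.7 CPM without mixed barcodes, and the 5 monocyte genes to 2231, 1413, 1656 and 1561 and 174, 163, 132 and 104 CPM. The 8 T cell genes summed to 35.97 to 52.3 CPM, against 4015 to 4287 CPM in T cell barcodes (at least 1 Cd3e UMI and no Cd79a) of the same libraries. Cd3e, Cd3d and Marco were at 0 by the rule.

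The values that chose the members are a description. Median UMIs per member were 16, 16, 16 and 18 for Cd79a, a signalling chain of the B cell receptor, 3, 2, 3 and 3 for Ms4a1 (CD20), 4, 4, 4 and 4 for Ighd and 3, 2, 2 and 2 for Fcer2a. Many members sat just inside the limit for CD23: 371, 296, 393 and 337 had exactly 1 Fcer2a UMI, and 331, 273, 462 and 355 barcodes just outside met every other condition with none. For Ighd, 167, 97, 102 and 101 members had exactly 1 UMI and 83, 56, 70 and 54 barcodes just outside had none.

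B cell genes that the rule did not use marked the members in all 4 libraries. Cd79b, a signalling chain of the B cell receptor, was at 1428, 1065, 1155 and 1190.03 CPM in all members, 108 to 162 times its level in the T cell barcodes. Ebf1, a transcription factor of B cell commitment, was at 1409, 1467, 1293 and 1393 CPM, 586 to 948 times the T cell level. Cr2, the complement receptor CD21, was at 102, 85.8, 103 and 102 CPM. All 14 B identity genes and all 7 follicular genes reached 50 CPM in at least 1 library. The recirculation genes of the follicular list separated members from T cells less: Klf2, a regulator of recirculation, was 1.48 to 1.85 times, and S1pr1, the exit receptor for sphingosine 1-phosphate, 0.785 to 0.961 times, the level in T cell barcodes.

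Other B cell states differed in how far their genes were detected. The 8 germinal centre genes summed to 34.3, 32.03, 41.2 and 38.3 CPM and none reached 50 CPM. The 5 B-1 genes summed to 36.9, 29.4, 43.1 and 35.6 CPM, again with none at 50 CPM. The 7 plasma cell genes summed to 122, 126, 147 and 134 CPM, with Irf4, a transcription factor also used by activated B cells, at 60.9, 54.3, 84.8 and 56.01 CPM. The 6 transitional genes summed to 633, 525, 554 and 548 CPM, mostly from Cd24a at 349, 298, 306 and 315 CPM and Vpreb3 at 224, 176, 194 and 187 CPM. The 7 marginal zone genes summed to 504, 434, 470.01 and 433 CPM, mostly from Mzb1, a chaperone of antibody assembly, at 385, 315, 359 and 320.2 CPM. Members with UMIs of at least 3 of 5 cell cycle genes numbered 1, 0, 2 and 1.

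Ift20 checked the genotype labels. In T cell barcodes it was at 56.7, 24.3, 58.4 and 20.8 CPM, a KO over WT log2 ratio of -1.22 (95% interval -1.40 to -1.04) under DPBS and -1.49 (95% interval -1.67 to -1.32) under papain. In the follicular B cells it was at 47.3, 35.2, 37.8 and 43.5 CPM, with log2 ratios of -0.43 (95% interval -0.73 to -0.13) and 0.20 (95% interval -0.06 to 0.47). Ift20 was thus lower in both KO libraries in T cells, and in the B cells it was lower in 1 pair with an interval that excluded 0 and higher in the other. Of the 11 intraflagellar transport genes, 0 reached 50 CPM in the members.

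**Figure D1:**
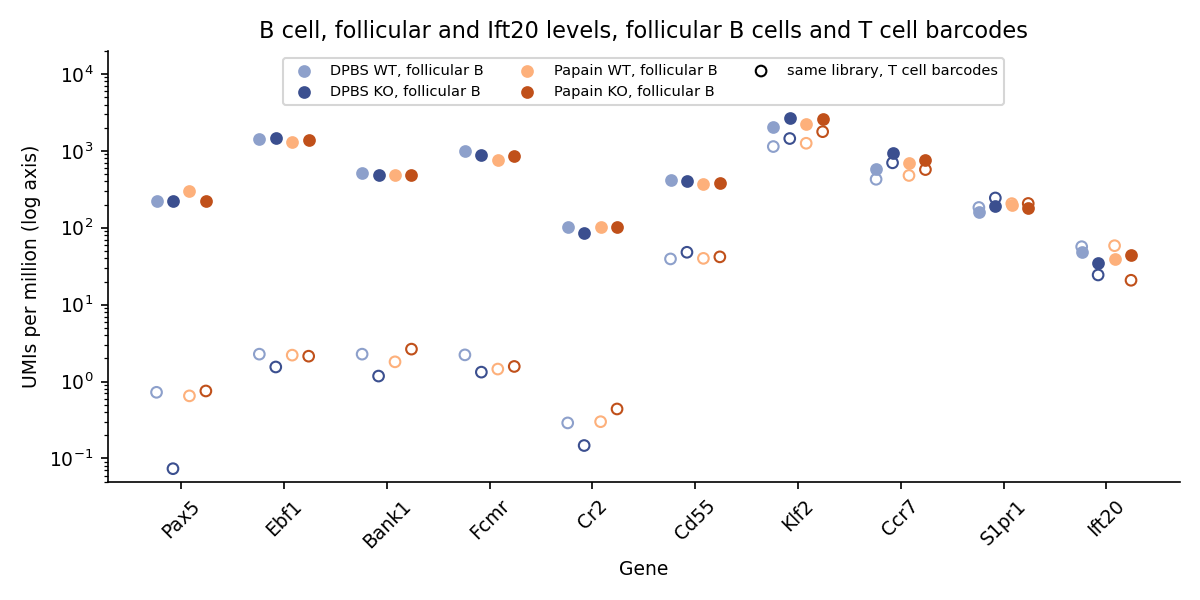
Levels of 9 B cell and follicular genes and of Ift20 (CPM, log axis) in all follicular B cells (filled) and T cell barcodes (open) of the 4 libraries. Pax5, Ebf1, Bank1, Fcmr and Cr2 separate the classes in every library, S1pr1 does not, and Ift20 is lower in the T cell barcodes of both KO libraries.

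The share of follicular B cells among barcodes kept was higher in DPBS WT and papain KO than in the other two libraries. Members were 1538 (WT) and 851 (KO) under DPBS and 1213 (WT) and 1097 (KO) under papain. Under DPBS they were 18.9% of kept barcodes in WT (exact 95% interval 18.04 to 19.8) and 14.9% in KO (14.004 to 15.9). Under papain they were 15.2% in WT (14.4 to 15.98) and 19.2% in KO (18.2 to 20.3). The log2 ratio of KO over WT was -0.34 under DPBS and 0.34 under papain, so the pairs differed in direction. Papain over DPBS was -0.32 in WT and 0.37 in KO. All barcodes come from a sort on CD45.2, so these shares move with every other immune cell recovered.

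Within the gated B cells the pattern was partly different. Members were 76.7, 69.8, 63.4 and 69.7% of them, highest in DPBS WT and lowest in papain WT, while DPBS KO and papain KO lay together. With this denominator papain over DPBS in KO came to a log2 ratio of -0.00214. B cells without IgD and CD23 made up 2.59, 3.28, 8.78 and 4.38% of gated B cells, and IgD-positive B cells without CD23 16.5, 22.4, 24.2 and 22.5%. After each barcode was thinned to 2000 UMIs, the share among kept barcodes was 10.1, 6.20, 7.11 and 7.98%, lower throughout because the rule needs several UMIs, and papain KO over papain WT had a log2 ratio of 0.17 with an interval that held 0.

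**Figure D2:**
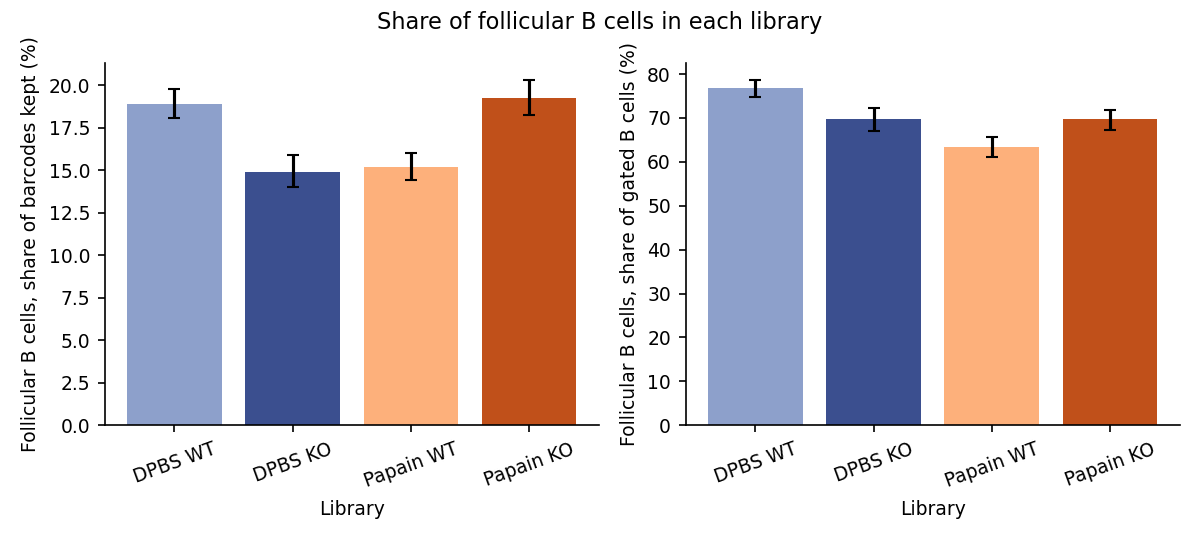
Share of follicular B cells among barcodes kept (left) and among gated B cells (right), in percent, with 1 bar a library and exact 95% binomial intervals for counting error. DPBS WT and papain KO are the taller bars on the left, and papain WT is the lowest bar on the right.

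Members had mostly kappa light chains and few transcripts of switched heavy chains. The rule requires Ighd, and the mixed definition takes out barcodes with Igha and Jchain UMIs. The low counts of switched isotypes are thus partly set by the selection and are a description. Ighm was at 3274, 2917, 3318 and 3049.8 CPM and Ighd, a selecting gene, at 1042, 900.2, 999.8 and 869 CPM. Ighe, the heavy chain of IgE, had 0, 0, 0 and 0 UMIs, where a count of 0 allows up to 3 in the library. Outside the mixed barcodes, members with at least 5 UMIs of Ighg2b numbered 3, 0, 1 and 1, of Ighg3 0, 1, 0 and 1, and of Ighg1, Ighg2c or Igha 0 in each library. Barcodes whose light chain constant UMIs were at least 90% lambda (Iglc1, Iglc2 and Iglc3) numbered 40, 19, 34 and 37, which is 2.73, 2.32, 2.96 and 3.55% of members, with overlapping intervals from 1.40 to 4.86% in all. In kappa barcodes (under 50% lambda) the medians were 43, 36.5, 42 and 46 Igkc UMIs and 9, 6, 7 and 8 lambda constant UMIs, and in lambda barcodes 0, 0, 0 and 0 Igkc UMIs. Iglc2 and Iglc3 are near-identical copies, so their separate values are uncertain.

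Against the B cells without IgD and CD23, the follicular cells had higher levels of all 11 MHC class II genes and of Fcmr, Cr2 and Zfp318, and lower levels of S100a6 and Zbtb32. The comparison class held 52, 40, 168 and 69 barcodes with median depths of 6524, 4927, 12750.5 and 8583 UMIs, deeper than the members, and it was set by the absence of Ighd and Fcer2a UMIs. Sums per library were compared by edgeR's quasi-likelihood test with the library as a block. The 4 libraries, which differ in genotype and treatment, thus act as replicates. The p-values measure how far the difference between the classes within a library spreads over the 4 libraries. Of 10297 genes tested, 924 (8.97%) were higher in follicular B cells and 1002 (9.73%) lower at an adjusted p under 0.05. The selecting genes and mitochondrial genes were left out.

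Fcmr, the Fc receptor for IgM, was at 989, 876, 764 and 854 CPM in all follicular members and 328, 348, 159 and 226 CPM in the other class. Every follicular value lay above every other one, a log2 fold change of 1.65 ± 0.12 (SE) (adjusted p = 1.3e-06, edgeR). Cr2 was at 102, 85.8, 103 and 102 CPM in all follicular members and 33.8, 44.6, 16.9 and 14.97 CPM in the other class, again without overlap, with a log2 fold change of 1.98 ± 0.22 (SE) (adjusted p = 3.7e-05, edgeR). Zfp318, which is needed for IgD transcripts to be made, had a log2 fold change of 2.22 ± 0.19 (SE). Icosl, the ligand of the T cell co-stimulator ICOS, had 1.92 ± 0.18 (SE). Vpreb3, a B lineage gene also found in transitional cells, had 1.87 ± 0.13 (SE). The other genes with the highest fold changes were Pxdc1 at 2.24 ± 0.21 (SE), Ifi214 at 2.11 ± 0.28 (SE), Fchsd2 at 2.01 ± 0.14 (SE), Tsc22d1 at 1.93 ± 0.17 (SE) and Treml2 at 1.85 ± 0.18 (SE), all with adjusted p of 1.9e-04 or less. Chil3, Lpl and Plet1 were also in that group, at 2.29, 2.20 and 1.85. Without mixed barcodes these 3 genes of macrophages were at 0.69, 1.000 and 0.94, and Lpl and Plet1 no longer passed (adjusted p = 0.21 and 0.34, edgeR).

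Among genes lower in follicular B cells, S100a6, a calcium-binding protein, was at 178, 123, 373 and 208 CPM in all follicular members and 1616, 1635, 3159 and 1517 CPM in the other class. All follicular values lay far under all others, a log2 fold change of -3.35 ± 0.11 (SE) (adjusted p = 1.2e-09, edgeR). Zbtb32, a repressor expressed in memory and B-1 cells, was at 4.55, 0.923, 7.41 and 3.40 CPM in all follicular members and 79.6, 26.8, 109 and 50.2 CPM in the other class, with a log2 fold change of -4.17 ± 0.19 (SE) (adjusted p = 2.1e-08, edgeR). The naming rule asks for 50 CPM only in the class where a gene is higher, and Zbtb32 reached it only in the other class. Its place among the named genes is thus a description. Ctla4, an inhibitory receptor best known from T cells, had -4.57 ± 0.42 (SE), and Fgl2, a fibrinogen-like protein, -3.39 ± 0.21 (SE). Pclaf, a replication factor partner, had -2.85 ± 0.28 (SE). Cacna1s, Fam46c, Dnase1l3, Zcwpw1, Plscr1 and Eaf2 lay between -3.997 and -2.72. Il10, a regulatory cytokine, was at 1.64, 0.923, 1.42 and 5.32 CPM in all follicular members and 27.9, 8.92, 22.4 and 42.8 CPM in the other class, with a log2 fold change of -3.73 ± 0.30 (SE). It was not among the lower genes named by the rule and stayed under 50 CPM in both classes, so this value rests on few UMIs.

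The antibody transcripts of the other class depended on mixed barcodes, a definition that also takes out IgA-secreting cells. Jchain, the joining chain of secreted IgM and IgA, was at 106, 1.62, 353 and 6.94 CPM in all follicular members and 901, 752, 3324 and 14994 CPM in the other class, with a log2 fold change of -5.77 ± 1.13 (SE). Without mixed barcodes (9, 7, 26 and 12 barcodes of the other class) it was -0.64 (adjusted p = 0.45, edgeR). Igkc moved from -2.03 to -0.08, Ighm from -2.51 to -0.71 and Xbp1, a plasma cell transcription factor, from -2.05 to -0.20. The fold changes of S100a6 and Zbtb32 were -4.29 and -4.46 in the same setting. Ift20 was -0.97 with and -0.10 without mixed barcodes.

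By list, MHC class II showed the most uniform difference. Its counts were 11 higher and 0 lower of 11 tested, with a median log2 fold change of 0.50 beside 0.03 over all genes tested. H2-Oa, a modulator of peptide loading, had 1.32 ± 0.10 (SE), and Ciita, the master regulator of the class, 0.95 ± 0.13 (SE). The follicular list had 4 higher and 1 lower of 7 tested, with Ccr7, a homing receptor for lymph nodes, at 1.20 ± 0.12 (SE), while Cxcr5, the receptor that leads B cells into follicles, was lower at -0.75 ± 0.11 (SE). B identity had 6 higher and 3 lower of 14 tested: Cd72, a co-receptor with inhibitory motifs, was at 1.80 ± 0.13 (SE), Pax5 at 0.84 ± 0.11 (SE), and Pou2af1, a co-activator that rises in germinal centre and plasma cells, at -0.74 ± 0.11 (SE). The plasma cell list had 0 higher and 5 lower of 7 tested, the B-1 list 0 higher and 3 lower of 5 tested and the dividing list 0 higher and 5 lower of 6 tested. BCR signalling had 3 higher and 1 lower of 17 tested, and BAFF and CD40 2 higher and 2 lower of 8 tested, with Tnfrsf13c (the BAFF receptor) at 1.02 ± 0.12 (SE) and Tnfrsf13b (TACI) at -0.40 ± 0.11 (SE). The IL-4 list split, with 2 higher and 4 lower of 8 tested: Il4i1, an enzyme induced by IL-4, was at 1.71 ± 0.25 (SE) and Socs1, a feedback inhibitor of cytokine signals, at -1.75 ± 0.26 (SE). The interferon list had 0 higher and 5 lower of 15 tested.

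Some of these counts moved with mixed barcodes and with depth. Without mixed barcodes 959 genes (9.96%) were higher and 1019 (10.6%) lower of 9628. There MHC class II had 10 higher and 0 lower, the plasma cell list 1 higher and 1 lower, the interferon list 5 higher and 2 lower and the dividing list 0 higher and 5 lower. When both classes were held to barcodes of 2000 to 10000 UMIs, 187 genes (1.98%) were higher and 197 (2.09%) lower of 9441, and 104 genes called over all depths had the opposite sign. In that window MHC class II had 5 higher and 0 lower of 11, with a median of 0.35, and the follicular list 4 higher and 0 lower of 7. The B-1 list had 0 higher and 3 lower of 5 and the plasma cell list 0 higher and 3 lower of 5. The dividing list had 0 higher and 0 lower of 2, with a median of 0.53. Over all depths its median was -2.89 over the 6 genes tested. These medians cover unlike sets of genes, so a change of sign is not shown. Fcmr was at 1.18, Cr2 at 0.92, Zfp318 at 1.03 and Vpreb3 at 0.82, nearer to 0 than over all depths, while S100a6 was at -3.71 and Zbtb32 at -5.13. Against IgD-positive B cells without CD23, 70 genes were higher and 182 lower of 10413. Of the 1926 genes called against B cells without IgD and CD23, 230 were called there in the same direction. Another 140 had the opposite sign, so most differences above were not called between members and this class. Higher and lower genes numbered 569 and 772 without DPBS WT, 392 and 554 without papain WT, and 498 and 610 without papain KO. The part of depth in these differences was not tested.

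**Figure D3:**
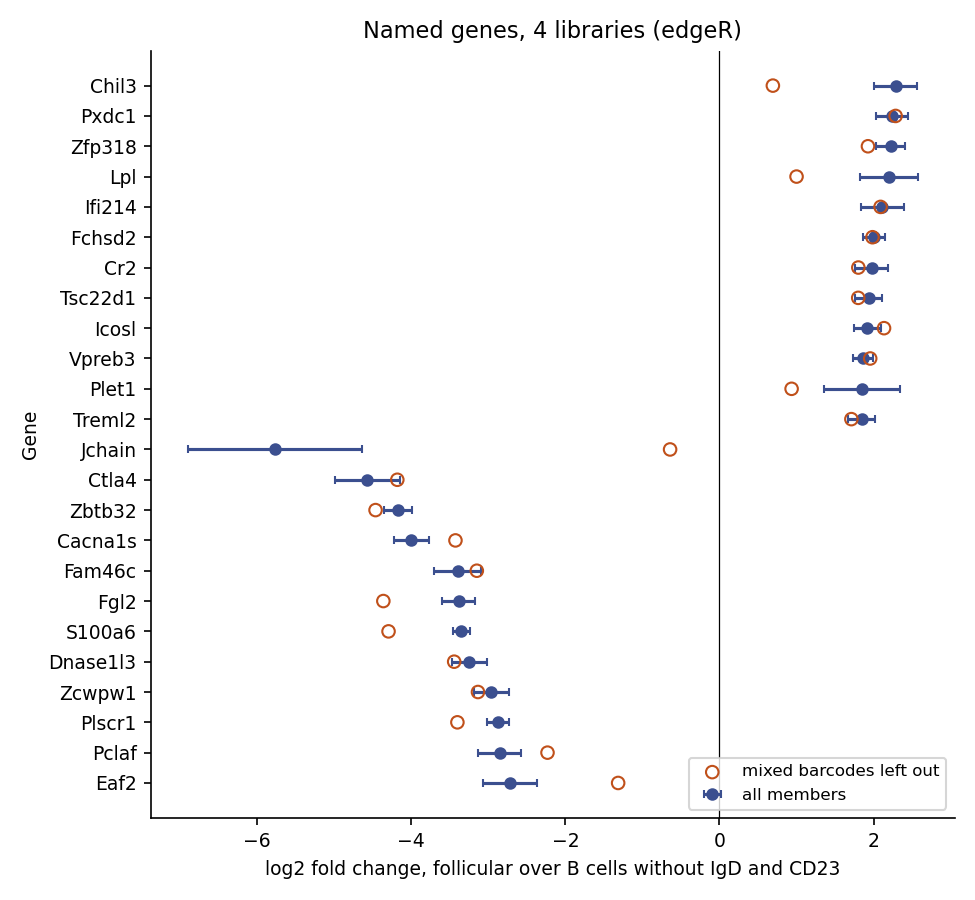
log2 fold change (edgeR, with SE) of the 24 genes named by the rule, follicular B cells over B cells without IgD and CD23, in all members (filled) and with mixed barcodes left out (open). Jchain, Chil3, Eaf2 and Lpl move most between the settings, and all 24 genes keep their side of 0.

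KO and WT follicular B cells were compared within each treatment, which asks whether B cells differ when Ift20 is deleted in T cells. Few genes were far apart. Of 2790 genes with at least 50 CPM in a library, 128 (4.59%) had a KO over WT log2 ratio past 0.5 in either direction under DPBS (85 up and 43 down) and 63 (2.26%) under papain (8 up and 55 down). With mixed barcodes in, the counts were 185 (6.36%) and 79 (2.71%) of 2910. The DPBS and papain pairs share no library.

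Hsph1, Dnaja1, S100a6 and Ly6a were among the genes that the rule named as lower in both KO libraries, and a counting interval without 0 in both pairs is part of that rule. Hsph1, an Hsp110 chaperone, was at 155 (WT) and 94.8 (KO) under DPBS and 273 (WT) and 117 (KO) under papain, in CPM. Both KO libraries lay under both WT ones, with KO over WT log2 ratios of -0.71 (95% interval -0.89 to -0.54) under DPBS and -1.22 (95% interval -1.35 to -1.09) under papain. Dnaja1, a co-chaperone of Hsp70, was at 466, 303, 591 and 419 CPM, with log2 ratios of -0.62 and -0.49, again without overlap. Hspd1, a mitochondrial chaperone named after its values were seen, had -0.50 and -0.39, Hsp90aa1 -0.38 and -0.35 and Hspa8 -0.42 and -0.35. The same direction appeared in the T cell barcodes of these libraries, at -0.46 and -0.75 for Hsph1 and -0.14 and -0.28 for Dnaja1.

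S100a6 was at 99.8, 67.5, 255 and 108 CPM, with KO over WT log2 ratios of -0.57 and -1.24. Papain WT stood highest. In the T cell barcodes the ratios were -0.57 and -0.64. Held to members of 2000 to 10000 UMIs, with mixed barcodes in, the papain ratio of S100a6 was 0.06, against -0.84 over all depths. Ly6a (Sca-1), which responds to interferon, was at 309, 225, 337 and 221 CPM, with -0.46 and -0.61 in the B cells and -0.64 and -0.60 in T cell barcodes. Pik3cd, the lymphocyte PI3 kinase subunit, had -0.50 and -0.46, Rubcn, an inhibitor of autophagy, -0.47 and -0.43, Gimap8, a lymphocyte GTPase, -0.77 and -0.42 and Chst3, a sulfotransferase, -0.41 and -0.61. Their T cell ratios were -0.21 and -0.05, -0.15 and -0.50, -0.36 and -0.17 and -1.20 and -0.995.

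Among genes higher in both KO libraries, Mbnl1, a splicing regulator, was at 335, 438, 371 and 546 CPM, with log2 ratios of 0.39 and 0.56 in the B cells and 0.45 and 0.46 in T cell barcodes. Hs3st1, a heparan sulfate sulfotransferase, was at 77.4, 123, 87.7 and 119.7 CPM, with 0.67 and 0.45 against 1.55 and 0.76 in T cell barcodes. mt-Nd3, a mitochondrial subunit of complex I, was at 588, 842, 617 and 838 CPM, and its ratios were 0.52 and 0.44 against 0.58 and 0.25. The long noncoding RNA AC160336.1 had 0.55 and 0.43 against 0.57 and 0.38. Rrad, a small GTPase, had 0.53 and 0.44 against 0.68 and 0.02, Rnaset2a, a ribonuclease, 0.42 and 0.42 against 0.24 and 0.60, and Ier5l, an immediate early gene relative, 0.75 and 0.64 against 0.35 and -0.46. Gm10036, annotated as a processed pseudogene and so uncertain in its counts, had the widest ratios, 0.80 and 2.06 against 0.85 and 2.13. Apart from Ier5l under papain, these genes had the same sign in the T cell barcodes, and the part of library-wide differences in the B cell values was not tested.

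Gene lists were read against all genes. The median log2 ratio over all genes at 50 CPM was 0.02 under DPBS and -0.01 under papain. MHC class II had medians of 0.04 and 0.04, with none of 11 genes past 0.5 in either pair, and BCR signalling -0.14 and -0.09, with none of 17. The B identity medians were -0.19 and -0.05. The light chain constant list had -0.56 and -0.04, with 3 of 4 genes past 0.5 downward under DPBS and none under papain. The interferon list had -0.36 and -0.25 over its 4 genes at 50 CPM, of which Ly6a was past 0.5 under papain. Immediate early and heat shock genes had medians of -0.22 and -0.05, with 1 of 16 past 0.5 (Fosb, under DPBS, downward). In BAFF and CD40, 2 of 7 genes at 50 CPM were past 0.5 downward under DPBS and none under papain: Tnfrsf13b was at 134, 85.8, 101 and 106 CPM and Cd40 at 78.2, 55.1, 62.9 and 60.99 CPM, with DPBS WT highest.

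Ccr7, Cd83, Ltb and the lambda genes were past 0.5 in the DPBS pair and nearer to 0 in the papain pair, and that difference between the pairs was not tested. Ccr7 was at 656, 1029.6, 791 and 817 CPM, with KO over WT log2 ratios of 0.65 and 0.05, and Cd83, an activation marker that stabilises MHC class II, at 376, 584, 490.2 and 511 CPM, with 0.63 and 0.06. DPBS KO stood highest for both. Ltb, a cytokine that shapes lymphoid tissue, was at 604, 394, 504 and 469 CPM, with -0.62 and -0.10. The lambda constant genes Iglc1, Iglc2 and Iglc3 had DPBS ratios of -0.72, -0.51 and -0.62 and papain ratios of 0.07, -0.12 and -0.10. In T cell barcodes the ratios of Ccr7 were 0.71 and 0.26 and of Cd83 -0.38 and -0.58.

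Papain and DPBS were compared within each genotype, which addresses the response to the allergen. Of the same 2790 genes, 136 (4.87%) were past 0.5 in WT (131 up and 5 down) and 26 (0.932%) in KO (16 up and 10 down). With mixed barcodes in, these were 144 (4.95%) and 39 (1.34%) of 2910. The WT and KO pairs share no library.

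Hspa1b, Socs3, Ccnd2, Irf2bp2, Sfn and Atf3 were among the genes that the rule named as higher in both papain libraries. Hspa1b, an inducible Hsp70, was at 612, 465, 1037 and 976 CPM, and the papain libraries lay above both DPBS ones, with papain over DPBS log2 ratios of 0.76 (95% interval 0.70 to 0.82) in WT and 1.07 (95% interval 0.99 to 1.15) in KO. Its T cell ratios were 0.65 and 1.41. Its near-identical copy Hspa1a had 0.23 and 0.22, and because reads can fall to either copy, the split is uncertain. Socs3, an inhibitor of cytokine receptors that signal through STAT3, was at 34.8, 33.3, 62.2 and 49.99 CPM, with 0.84 and 0.58 in the B cells and 1.24 and 0.01 in T cell barcodes. Ccnd2, the cyclin D2 gene of the growth response of B cells, was at 47.5, 42.004, 75.5 and 62.9 CPM, with 0.67 and 0.58 against 0.09 and -0.03 in T cell barcodes. Socs3 and Ccnd2 reached the 50 CPM filter only through papain libraries, where they were high, so their place among the named genes is a description.

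Irf2bp2, a transcriptional co-repressor, was at 92.9, 91.9, 139 and 152 CPM, with 0.58 and 0.72. Sfn, the 14-3-3 sigma protein, was at 66.996, 54.6, 104 and 86.9 CPM, with 0.63 and 0.67, and Atf3, a stress-induced transcription factor, at 51.9, 38.6, 75.9 and 64.3 CPM, with 0.55 and 0.74. For each of these, both papain libraries were above both DPBS libraries. S100a6 had 1.35 and 0.68 and Hspb1, a small heat shock protein, 0.45 and 0.45. The S100a6 ratios are over all depths, and its KO over WT ratio under papain depended on depth, as given above. S100a4, outside the rule for these cells and named after its values were seen, had 1.40 and 1.02, at 19.1, 7.61, 50.2 and 15.5 CPM.

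Genes lower in both papain libraries differed less. Apart from Gm10036, at -2.57 and -1.31 with T cell ratios of -2.30 and -1.02, the genes named by the rule had ratios nearer to 0. Map1lc3a, an autophagy protein, had -0.27 and -0.52, Otud1, a deubiquitinase, -0.27 and -0.35, Spi1, the transcription factor PU.1, -0.27 and -0.25, Snn -0.18 and -0.17, Ifi27l2a, an interferon-induced gene, -0.21 and -0.16 and Ypel3 -0.16 and -0.17. Fcer2a, a selecting gene, was at 687, 557, 541 and 503 CPM, with -0.34 and -0.15, a description only. H2-Aa, a class II chain, had -0.10 and -0.17. Il4ra, the receptor for IL-4, had 0.07 and -0.16 and Il2rg, its common gamma chain, -0.07 and -0.13.

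By list, the medians of papain over DPBS in WT and KO were -0.07 and -0.13 for MHC class II, 0.03 and 0.04 for BCR signalling, 0.19 and -0.14 for the IL-4 list and 0.27 and 0.02 for homing and positioning, beside 0.04 and 0.01 over all genes. No MHC class II gene was past 0.5. In WT, Syk, the first kinase of the B cell receptor pathway, had 0.52 and Cxcr4, the chemokine receptor for marrow and dark zone, 0.62, against -0.0014 and 0.07 in KO. Immediate early and heat shock genes had medians of 0.17 and 0.18, with 2 and 2 of 16 past 0.5 upward, Hspa1b and Atf3 in both genotypes.

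**Figure D4:**
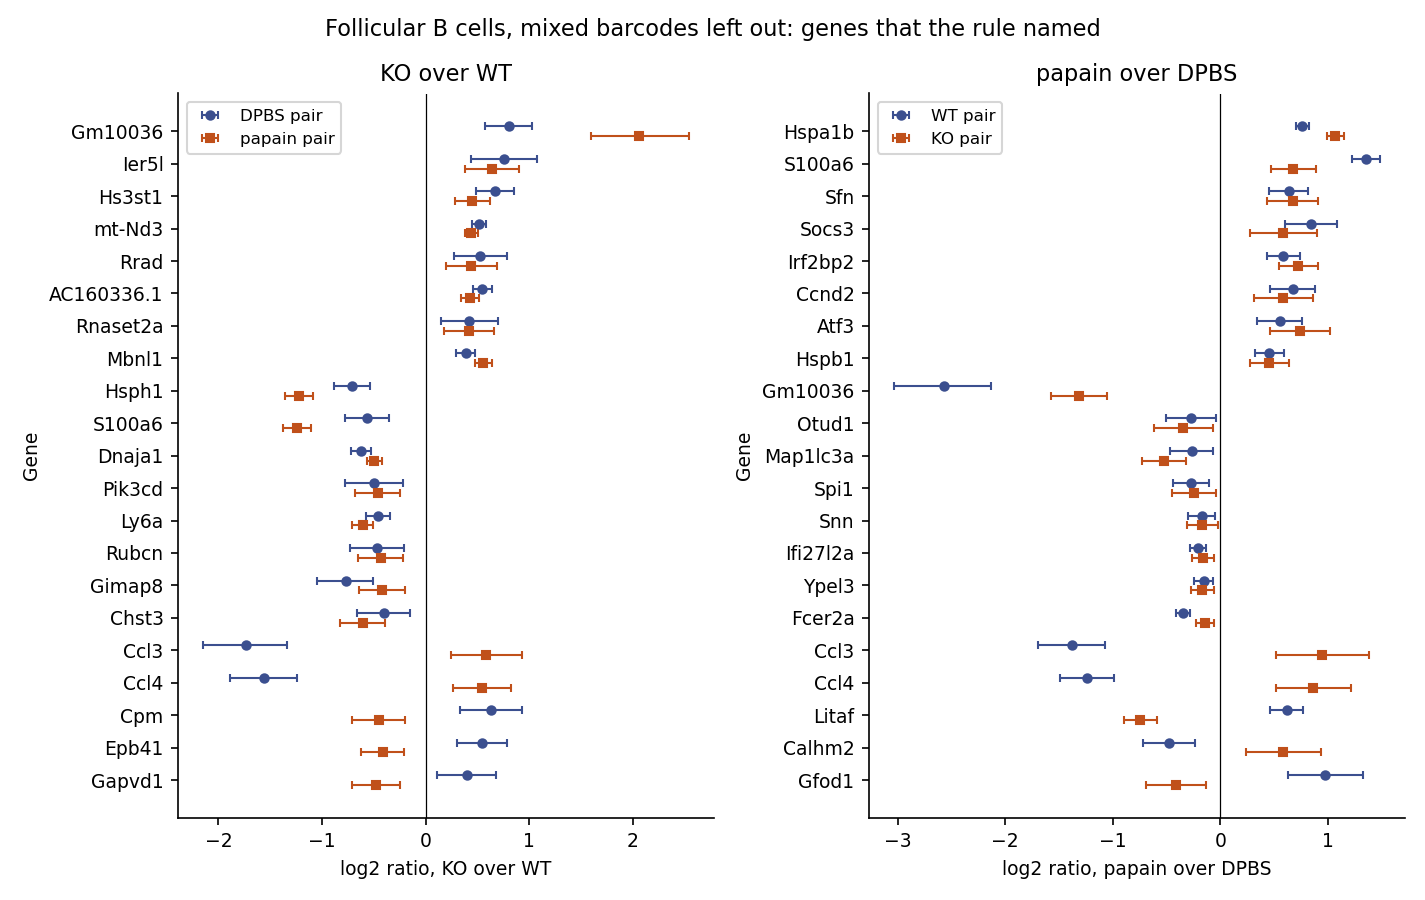
log2 ratios with exact 95% counting intervals for the genes named by the rule, KO over WT (left, DPBS and papain pairs) and papain over DPBS (right, WT and KO pairs), with mixed barcodes left out. Genes run from higher in both pairs through lower in both pairs to opposite signs. Gm10036 has the widest values, and Ccl3 and Ccl4 lie on opposite sides of 0 in the pairs of both panels.

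Heat shock transcripts varied widely among the follicular B cells within every library. Summed over Hspa1a and Hspa1b, 17.8, 54.6, 30.1 and 34.1% of members had no UMI and 26.4, 17.2, 32.6 and 28.4% had 20 or more, with medians of 8, 0, 3 and 1 and 90th percentiles of 35, 46.3, 60 and 64 UMIs. DPBS KO had the largest share at 0 (exact 95% interval 51.2 to 58.1) and DPBS WT the smallest (15.9 to 19.9). Of 5 bands of UMIs, the one from 5 to 19 held the most members in DPBS WT (33.2%). In each other library the band at 0 held the most. Depth was close in both kinds of barcode, with medians of 4038, 4310, 4272 and 4844 UMIs at 20 or more and 4015, 4226, 4380.5 and 4769 UMIs at 0. The T cell barcodes also varied, with 18.97, 51.9, 26.3 and 26.8% at 0 and 22.03, 16.95, 31.8 and 34.6% at 20 or more, at median depths of 6125, 6809, 6684 and 7398 UMIs. DPBS KO stood apart in both cell types.

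Members with 20 or more Hspa1a and Hspa1b UMIs differed from those with none in other genes. These barcodes were chosen on heat shock UMIs, so the values are a description with no test, given as log2 ratios of CPM with 5 added. Higher in them in all 4 libraries were Hspb1 (3.32, 6.02, 4.71 and 4.37), Dnajb1, an Hsp40 co-chaperone (2.30, 3.86, 3.09 and 3.18), Jun, a subunit of the AP-1 factor (1.73, 2.67, 2.43 and 2.78), and Ciita (1.04, 1.21, 1.05 and 0.89). Lower in them were Vps37b, a subunit of the ESCRT-I sorting complex (-2.35, -2.09, -2.28 and -2.31), Crem, a cyclic AMP responsive factor (-2.22, -2.33, -1.94 and -1.90), Litaf (-2.09, -2.46, -1.74 and -1.82), Gpr171, a G protein-coupled receptor (-2.002, -1.39, -1.53 and -1.16), and Hs3st1 (-1.74, -1.21, -1.51 and -1.54). Ccr7 had -0.87, -0.32, -0.58 and -0.55 and Klf2 0.02, 0.99, 0.43 and 0.70. Gfod1 had -1.81, -2.03, -2.37 and -2.11. Hsph1 was also higher in them (1.12, 2.87, 1.81 and 2.47), as was Dnaja1 (0.95, 1.77, 1.35 and 1.69). Among members with 20 or more, Hsph1 was at 204, 308, 453 and 244 CPM and Dnaja1 at 593, 660, 909 and 695 CPM. There KO lay above WT under DPBS and below it under papain. Among members with none, Hsph1 was at 91.4, 37.9, 126 and 39.8 CPM and Dnaja1 at 305, 191, 353 and 212 CPM. KO was lower there in both pairs. Levels of these genes between libraries thus stand beside unequal shares of barcodes without heat shock UMIs, whose part in the ratios above was not tested.

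**Figure D5:**
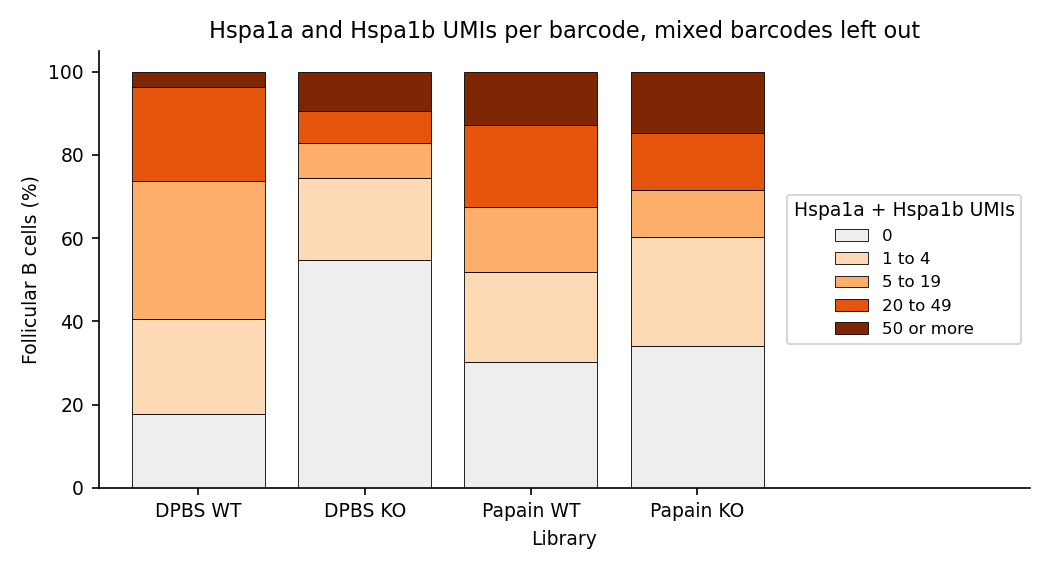
Share of follicular B cells (%) in 5 bands of summed Hspa1a and Hspa1b UMIs per barcode, 1 bar a library, mixed barcodes left out. The band at 0 is largest in DPBS KO, at 54.6%, and the band from 5 to 19 is largest in DPBS WT, at 33.2%.

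The promoters of 5 chaperone genes that were lower in both KO libraries are shown because at least 1 window of each holds the short repeat read by heat shock factors. They were picked after their values were seen, and having the motif was a condition of being shown. The shares of all windows and genes given here are thus background only. Hspa8 and Hsp90aa1 were also lower in both KO libraries and are not shown. Hspa8 was not searched, and Hsp90aa1 had no window in the set. Each is the RefSeq window of 250 bases before to 50 bases after a transcript start (GRCm38.p6), 5′ to 3′ on the gene's strand, with each GAANNTTC, searched on both strands, in capitals. That motif is its own reverse complement, and 7.86% of 32851 such windows hold it. The windows are Hsph1 at chr5:149636287-149636586, minus strand, Hspb1 at chr5:135887669-135887968, plus strand, Dnaja1 at chr4:40722218-40722517, plus strand, Hspd1 at chr1:55087883-55088182, minus strand and Hspa1b at chr17:34959189-34959488, minus strand. Where a gene has several windows in RefSeq, 1 that holds the motif is printed. The other windows of Dnaja1 and of Hspd1 hold none. Counted by gene, 9.04% of 27025 genes have the motif in at least 1 window.
Hsph1: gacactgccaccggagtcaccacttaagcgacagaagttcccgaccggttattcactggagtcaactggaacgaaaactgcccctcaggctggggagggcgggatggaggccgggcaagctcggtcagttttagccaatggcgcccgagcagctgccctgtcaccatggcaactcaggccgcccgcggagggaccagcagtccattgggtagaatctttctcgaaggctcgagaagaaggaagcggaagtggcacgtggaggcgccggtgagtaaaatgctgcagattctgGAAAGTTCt
Hspb1: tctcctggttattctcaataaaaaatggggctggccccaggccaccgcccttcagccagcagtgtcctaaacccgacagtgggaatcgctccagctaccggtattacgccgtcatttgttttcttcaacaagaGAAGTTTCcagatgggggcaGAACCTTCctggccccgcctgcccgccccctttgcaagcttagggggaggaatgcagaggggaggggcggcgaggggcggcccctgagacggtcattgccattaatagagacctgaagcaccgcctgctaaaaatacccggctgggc
Dnaja1: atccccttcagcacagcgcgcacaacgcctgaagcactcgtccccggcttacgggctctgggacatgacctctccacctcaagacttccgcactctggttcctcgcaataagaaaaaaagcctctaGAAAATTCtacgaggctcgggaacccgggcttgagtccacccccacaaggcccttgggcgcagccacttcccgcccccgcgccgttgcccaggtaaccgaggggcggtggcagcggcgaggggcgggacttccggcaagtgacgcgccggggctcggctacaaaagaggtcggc
Hspd1: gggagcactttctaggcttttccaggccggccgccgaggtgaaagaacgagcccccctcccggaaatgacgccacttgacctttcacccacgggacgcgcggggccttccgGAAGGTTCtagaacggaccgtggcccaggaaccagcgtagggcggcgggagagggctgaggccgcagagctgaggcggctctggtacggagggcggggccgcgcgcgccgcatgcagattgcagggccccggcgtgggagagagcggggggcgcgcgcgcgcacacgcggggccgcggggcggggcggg
Hspa1b: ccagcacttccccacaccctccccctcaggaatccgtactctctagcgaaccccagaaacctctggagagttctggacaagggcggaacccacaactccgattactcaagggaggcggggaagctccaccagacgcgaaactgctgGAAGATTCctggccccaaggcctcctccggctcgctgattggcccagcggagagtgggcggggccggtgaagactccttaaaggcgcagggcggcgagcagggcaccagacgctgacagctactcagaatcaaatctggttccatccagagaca

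In the printed windows, Hspb1 holds 2 copies and the others 1. The longer heat shock element has a further GAA unit 2 bases on and overlaps the shorter one. Searched on both strands, it stands in 0.603% of windows and 0.662% of genes. The printed windows of Hsph1 and Hspd1 hold it. A match describes letters in these windows and not binding. Hsph1 and Hspd1 were lower in both KO libraries, at -0.71 and -1.22 and -0.50 and -0.39, Hspb1 at -0.37 and -0.37, and Hspa1b at -0.40 and -0.09, where the papain interval ran from -0.14 to -0.04.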

How the data were processed

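The deposited files hold whole-number UMI counts per gene and barcode for 4 libraries (Chromium 3′ v3), made by the authors with Cell Ranger on mm10 per the labels (software version 3.1.0 in the file headers). Barcodes with more than 200 genes and under 15% mitochondrial UMIs were kept, and no doublet caller was run. The members and gene lists were chosen with earlier results of these data known. Members were summed per library. Levels are counts per 1000000 (CPM) with exact Poisson intervals, shares have exact Clopper-Pearson intervals and ratios exact conditional intervals (95%, counting error only). Sums of follicular B cells and of B cells without IgD and CD23 were compared with edgeR 4.0.16 (quasi-likelihood test, library block, Benjamini-Hochberg), and DESeq2 1.42.0 was an alternative. On simulated counts for this comparison over 10389 genes, the test recovered 98% of genes changed by a log2 fold of 2 and 61% of those changed by 1. The simulation gave every gene the same dispersion and the same mean in all 4 libraries, and changed only the more abundant genes. These rates are thus not the power on the real counts. The genes named against B cells without IgD and CD23 are the 12 highest and 12 lowest fold changes past the threshold, without antibody variable segments. They had 50 CPM or more in the class where the gene was higher. For ratios, the genes named are the first 8 up, 8 down and 5 of opposite sign, ranked by the smaller ratio. These came from genes at 50 CPM in at least 1 library and at least 20% of the level in other barcodes. Their intervals in both pairs left out 0. Mixed barcodes were left out as an alternative chosen after seeing the data, and the genes of the ratio comparisons are those the rule gave in that setting. With mixed barcodes in, it named Igha, Jchain, Ctsk, Spp1, Chil3, Retnla, Cxcl10 and others. In the libraries where these 7 genes were high most of their UMIs lay in mixed barcodes, and ratios of that setting are not reported. Some genes are not reported here.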

Additional observations from a re-analysis of the deposited data

Results flagged for a closer look

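The share of follicular B cells among barcodes kept moved in opposite directions in the pairs compared: KO over WT was -0.34 under DPBS and 0.34 under papain, and papain over DPBS was -0.32 in WT and 0.37 in KO, as log2 ratios. The difference was not tested, since each group is 1 library.

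Genes whose follicular ratios had opposite signs in the 2 pairs, with counting intervals that left out 0 and mixed barcodes left out, follow as log2 ratios, and none of these differences was tested. The chemokine genes Ccl3 and Ccl4, made by activated B cells and myeloid cells, had KO over WT ratios of -1.74 and -1.56 under DPBS and of 0.58 and 0.54 under papain. Their papain over DPBS ratios were -1.38 and -1.24 in WT and 0.94 and 0.86 in KO. With mixed barcodes in, the rule instead named Ccl3 among the genes lower in both papain libraries. Its sign in KO thus depends on leaving out mixed barcodes, a limit set after seeing the data. At 53.4, 16.01, 20.5 and 30.8 CPM for Ccl3 and 73.5, 24.9, 31.1 and 45.4 CPM for Ccl4, DPBS WT stood above the other libraries. Both genes reached the 50 CPM filter only through DPBS WT, where they were high, so their place here is a description. For KO over WT, the carboxypeptidase M gene had 0.63 under DPBS and -0.45 under papain, Epb41 0.54 and -0.42, and Gapvd1 0.39 and -0.48. For papain over DPBS, Litaf, which acts in endosomal sorting, had 0.61 in WT and -0.75 in KO, Calhm2 -0.48 and 0.58, and Gfod1 0.97 and -0.42. The filter asks for 50 CPM in 1 library only, so the places of these genes are a description as well. Counts of such genes over all considered were 168 for KO over WT and 195 for papain over DPBS, of 2773.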

How the results depend on the processing

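The share of follicular B cells (log2 ratios) moved under these settings. With Fcer2a and Ighd at 2 or more UMIs, KO over WT under DPBS was -0.54. As a share of gated B cells it was -0.14 under DPBS and 0.14 under papain, and papain over DPBS in KO was -0.00214, a change of sign. Thinned to 2000 UMIs, KO over WT was -0.70 and 0.17, and papain over DPBS in WT -0.51. Leaving out barcodes with UMIs of 2 other lists gave 0.61 for KO over WT under papain and -0.48 for papain over DPBS in WT, and barcodes of 2000 to 10000 UMIs gave 0.20 for papain over DPBS in KO. Counts of genes past 0.5 rose to 288, 132, 224 and 74 (KO over WT under DPBS and papain, papain over DPBS in WT and KO) when totals left out immunoglobulin, mitochondrial and ribosomal genes, and the last was 24 as a mean over cells. Igkc, KO over WT under papain, changed sign to 0.24 over all gated B cells and to 0.013 without mixed barcodes, and S100a6 to 0.064 at 2000 to 10000 UMIs. Against B cells without IgD and CD23, genes higher and lower were 477 and 850 by DESeq2, 187 and 197 at 2000 to 10000 UMIs, 70 and 182 against IgD-positive B cells without CD23, 413 and 478 without barcodes of 2 other lists, and 911 and 1085 without the library block. Leaving out 1 library in turn gave 392 to 793 higher and 554 to 967 lower, fewest without papain WT. At 2000 to 10000 UMIs the fold changes of Ift20 and Lpl changed sign, to 0.015 and -0.048. The causes of these changes were not tested. The test against B cells without IgD and CD23 paired the classes within each library. Between conditions no paired analysis was possible because the labels carry no replicate numbers. With 1 library a group, depth limits only counting error, and differences between mice or libraries cannot be told apart from those of genotype or treatment.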

Other observations

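Antibody variable segments were sparse in these 3′ libraries. Members without mixed barcodes that held any kappa variable UMI numbered 159, 81, 136 and 128 (WT and KO under DPBS, then under papain), spread over 59, 41, 54 and 54 segments, and the segment with the most UMIs held 12, 6, 9 and 9. For heavy chain variable segments the numbers were 123, 64, 122 and 140 barcodes over 58, 41, 54 and 63 segments.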
